A study of Mus musculus with 24 samples.

Results

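The libraries described here are the 11 made from kidney inner medulla 72 h after cisplatin, divided into 2 classes by their level of Lcn2, the lipocalin that is measured in urine as the injury marker NGAL. The classes were chosen by a measured value: libraries with at least 1000 counts of Lcn2 per 1000000 counts of the library (CPM by column total) formed the high-Lcn2 class, and those under 1000 CPM the low-Lcn2 class. This put 7 libraries in the high class (the male libraries MC1 to MC5 and the female libraries FC4 and FC5) and 4 in the low class (the male library MC6 and the female libraries FC1, FC2 and FC3), of 24 libraries in the series. Because the classes were defined by an outcome of the same libraries, every difference in expression between them is given as a description, without a test, and Lcn2 itself supports nothing. Tests across the classes were made only of labelled sex and of total counts, which the rule did not use to form them except as the divisor of CPM.

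All mice were C57BL/6, an inbred laboratory strain, aged 9 to 10 weeks. The cisplatin groups, 6 male and 5 female libraries, came from animals given a single injection of cisplatin at 15 mg/kg into the peritoneum, in a volume of 100 µl. The saline groups, 6 male and 7 female libraries, were injected with saline in the same way, and all tissue was taken 72 h after the injection and snap frozen. No genetic modification is named for any group. Whether every library is a different mouse is not in the labels, and the p-values below therefore measure spread between libraries only. Poly(A) RNA was sequenced, and in such bulk tissue fewer cells of a type and less RNA per cell cannot be told apart.

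Cisplatin is a platinum compound that crosslinks DNA and is toxic to kidney tubules. The inner medulla is the hyperosmotic zone at the tip of the kidney, built of collecting ducts, thin limbs of Henle, interstitial cells and capillaries. Injured distal tubules and collecting ducts secrete lipocalin 2, a carrier of bacterial siderophores and iron, and its transcript is among those that increase most in acute kidney injury.

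In the low class, Lcn2 was at 115 CPM by column total in FC2, 123 in FC3, 220 in MC6 and 529 in FC1. In the high class it was at 1315 in MC4, 2110.2 in FC5, 2321 in MC5, 2410.4 in MC3, 3459 in FC4, 3826 in MC1 and 6191 in MC2. The 13 saline libraries lay between 48.7 and 130.2, so FC2 and FC3 were inside the saline range and MC6 and FC1 above it. The library just under the threshold (FC1, 529) and the one just over it (MC4, 1315) differed 2.49-fold.

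**Figure D1:**
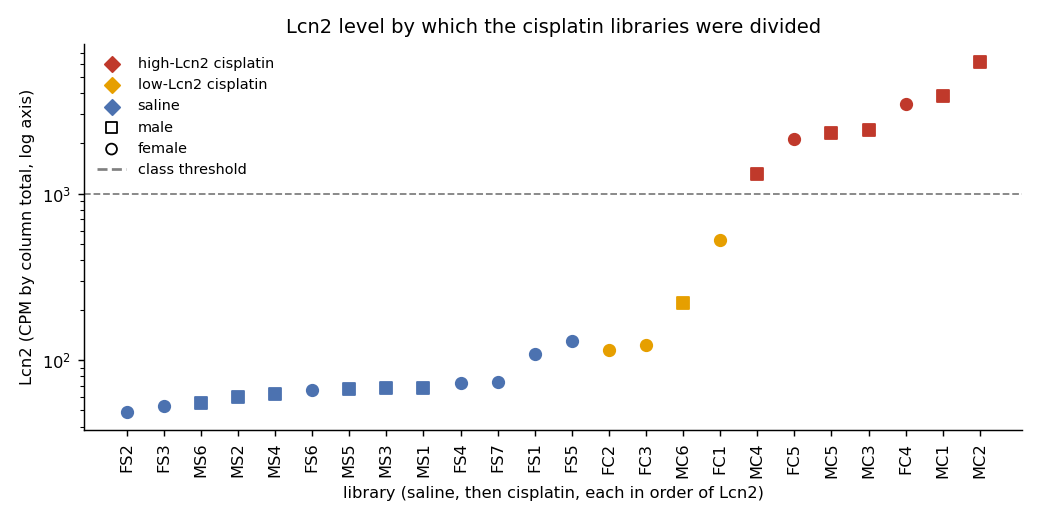
Lcn2 in CPM by column total (log axis) in each of the 24 libraries, with saline libraries first and each treatment in order of its Lcn2 level; squares are male and circles female libraries, and the dashed line is the threshold of 1000 CPM. The 7 high-Lcn2 libraries lie between 1315 and 6191, and 2 of the 4 low-Lcn2 libraries lie within the saline range of 48.7 to 130.2.

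On the labelled groups, which do not use the classes, cisplatin libraries differed more among themselves than saline libraries did. The root mean square deviation of log2 CPM from the mean of a library's own group of sex and treatment was 0.527 ± 0.0955 in cisplatin (SD, n = 11) and 0.386 ± 0.0682 in saline (SD, n = 13), a difference of 0.142 (two-sided permutation test, p = 0.00022). Of the 6 male cisplatin libraries 5 were in the high class, and of the 5 female libraries 2 were (two-sided Fisher's exact test, p = 0.242), and with so few libraries this does not show that the sexes are alike. Total counts, in units of 1000000, were 22.3 ± 2.69 in the high class (SD, n = 7) and 22.7 ± 3.30 in the low class (SD, n = 4), a difference of -0.422 (two-sided exact permutation test, p = 0.818). Over all 24 libraries total counts ran from 18.1 to 27.3 in the same units. The library MC5 stood apart from the others: its deviation of 0.766 was the largest of all, and ribosomal protein genes took 5.76% of its counts. In the other high-class libraries they took 2.71% to 3.96%, in the low class 2.40% to 2.78% and in saline 2.17% to 2.68%, so that 6 of the 7 high-class libraries exceeded every low-class and saline library. The part of this in the differences below was not tested beyond leaving MC5 out.

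The low-Lcn2 libraries were, gene by gene, about as far from saline as single saline libraries were. The number of genes at least 2-fold above the mean of the saline libraries of the same sex was 191 in MC6, 474 in FC1, 447 in FC2 and 334 in FC3, and in single saline libraries, each against the others of its sex, it was 130 to 483. In the high class it was 635 in MC4, 980 in FC5 and 1269 to 2467 in the other libraries. Genes at least 2-fold below saline numbered 366 to 681 in the low class, 157 to 1083 in saline and 438 (MC4) to 2069 (MC5) in the high class. MC4 therefore had the fewest such genes of the high class in both directions, and on the lower side it fell within the low-class range.

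**Figure D2:**
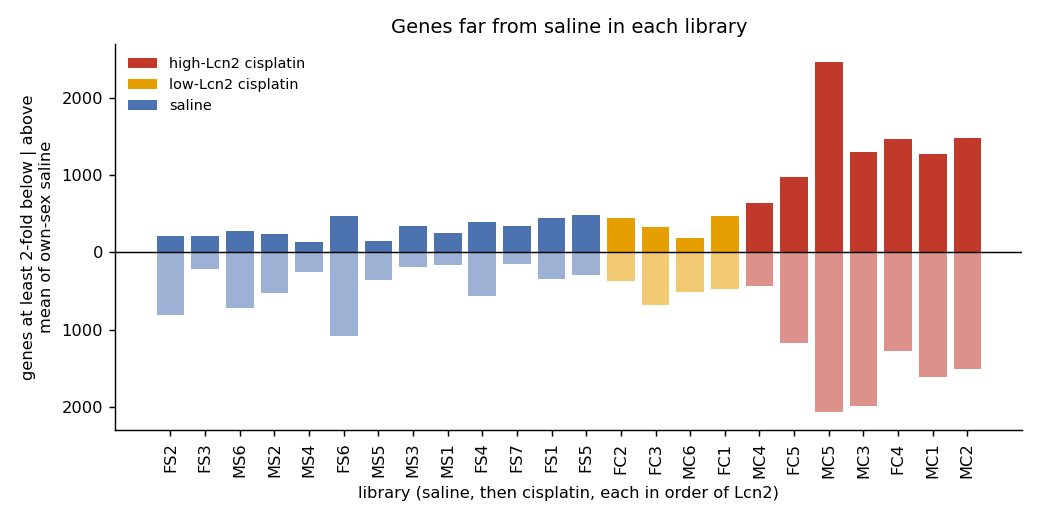
Number of tested genes at least 2-fold above (upward bars) or below (downward, paler bars) the mean of the saline libraries of the same sex, in each library, in the order of the Lcn2 plot. The low-Lcn2 libraries (191 to 474 genes above) lie in the range of the saline libraries (130 to 483), and the high-Lcn2 libraries reach 635 to 2467.

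Between the classes, a gene was called where the ranges of log2 CPM of the 7 and the 4 libraries did not overlap and their means differed by at least 1, which is a factor of 2. Of 18005 tested genes, 317 (1.76%) were called higher in the high class and 214 (1.19%) lower. With sex as a covariate, 277 of the 317 and 166 of the 214 were also called. Without MC5 the counts were 371 and 263. Without MC4, the high-class library nearest the threshold, they were 438 and 344, and with a threshold of 500 CPM, which moves FC1 to the high class, they were 136 and 88. For 298 of the genes called higher the low-class range overlapped that of saline. In 17 it was wholly above saline, against 35 (0.194%) of all tested genes. For Cracr2a and Gjb6, also called higher, it was wholly below saline. Their mean log2 differences from saline were -1.35 and -0.77 in the low class and 0.007 and 0.34 in the high class. Overlap does not mean saline level: for Socs3, FC2 alone of the low class was within the saline range. In 213 of the genes called higher all high-class libraries were above all saline libraries. For the genes called lower the low class overlapped saline in 214 of 214, and 100 had every high-class library below every saline library. Over all tested genes, 757 (4.20%) had the whole high class above saline and 487 (2.70%) below it, against 35 (0.194%) and 23 (0.128%) for the whole low class. Leaving out a low-class library raised the latter to between 61 (FC3) and 85 (MC6) above and between 41 (FC2) and 78 (FC1) below. A class of 4 and a class of 7 are not equally likely to lie outside a range, so these shares are set side by side without a comparison.

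**Figure D3:**
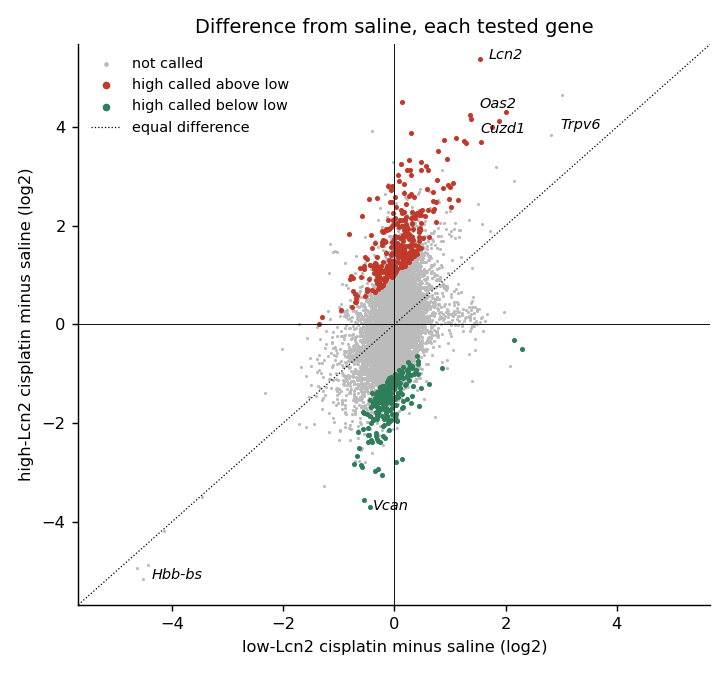
Mean log2 difference from saline of each tested gene in the low-Lcn2 class (x axis) and in the high-Lcn2 class (y axis), with genes called between the classes in colour and a dotted line where both differences are equal. For 298 of the 317 genes called higher and for all 214 called lower the low-Lcn2 class overlaps saline. It does so too for all tested genes but 35 above and 23 below saline. Trpv6 and Hbb-bs lie far from 0 on both axes, and both differences use the same saline libraries.

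Several products of injured tubules were higher in the high class. Of 22 tested genes of a tubular injury and repair list other than Lcn2, whose call the rule fixed, 5 were called higher and 0 lower (Spp1, Clu, Il34, Lif and Fgg), beside 1.76% and 1.19% of all tested genes. The median difference between the classes was 1.02 on the log2 scale over these 22, against -0.003 over all tested genes. From here on levels are CPM with library sizes scaled by TMM (trimmed mean of M-values). Spp1, which encodes the secreted phosphoprotein osteopontin, was at 4213 to 16883 CPM in the high class (median 7753). In the low class it was at 1967 in MC6, 4149.9 in FC1, 2019 in FC2 and 2966 in FC3, and in saline at 1364 to 2012. All high-class libraries were above all low-class ones, but FC1 was just under the lowest of them, and 3 of 4 low-class libraries were above every saline library. Clu encodes the extracellular chaperone clusterin and was at 228 to 857 CPM in the high class and 87.5, 167, 87.4 and 173 in MC6, FC1, FC2 and FC3, with saline at 62.4 to 133. In Clu, FC1 and FC3 were above saline and MC6 and FC2 within it. Smoc2, which encodes a matricellular protein, was at 21.1 to 153 CPM in the high class (median 89.4) and at 8.203, 9.35, 9.71 and 8.91 in MC6, FC1, FC2 and FC3, all inside the saline range of 5.13 to 13.1. Havcr1, the proximal tubule injury marker KIM-1, did not pass the filter on low counts: it was at 0.111 to 1.93 CPM in the high class, at 0.172 in FC1 and at 0 in the other low-class libraries.

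Some genes of the IL-6 family and STAT3 pathway were also called. Cytokines of this family act through JAK kinases and the transcription factor STAT3, which induces acute phase genes and its own inhibitor, SOCS3. Of 17 tested genes, 5 were called higher (Lif, Socs3, Bcl3, Cebpd and Lrg1) and 0 lower, beside 1.76% and 1.19% of all tested genes. The list's median difference was 0.79 on the log2 scale, and Lif is also counted in the tubular injury list. Lif, a ligand of the family, was at 1.16 to 6.22 CPM in the high class and at 0.399 to 0.738 in the low class, which overlapped saline (0.107 to 0.763). Socs3 was at 102 to 257 CPM in the high class (median 168), at 37.5 in MC6, 40.4 in FC1, 14.7 in FC2 and 26.4 in FC3, and at 6.48 to 20.2 in saline. The high class was above both other sets, 3 of the 4 low-class libraries were above saline and FC2 was within it. Lrg1 encodes a secreted leucine-rich glycoprotein of the acute phase and was at 2.08 to 38.2 CPM in the high class (median 10.8). In the low class Lrg1 was at 1.93 in MC6, 0.948 in FC1, 1.02 in FC2 and 1.11 in FC3, against 0.715 to 1.87 in saline. The ranges of the classes were thus close for Lrg1, with MC4 (the lowest of the high class) at 2.08 and MC6 at 1.93. Bcl3, a nuclear partner of NF-kB, was at 31.0 to 45.8 CPM in the high class and at 17.3, 13.6, 11.3 and 10.4 in MC6, FC1, FC2 and FC3, with every cisplatin library above the saline range of 4.71 to 8.15.

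Interferons act through cell surface receptors and JAK kinases to induce antiviral enzymes and the machinery that cuts and loads peptides onto MHC class I. In the interferon list, 3 of 22 tested genes were called higher, Oas2 and Mx2 among them, and 0 lower. Of all tested genes 1.76% and 1.19% were so called, and the list's median difference was 1.00 on the log2 scale. Oas2 makes the messenger that activates RNase L and was at 70.2 to 231 CPM in the high class (median 107), at 10.1 in MC6, 23.1 in FC1, 9.23 in FC2 and 31.0 in FC3, and at 4.60 to 8.77 in saline. Every cisplatin library was above every saline library for Oas2, and FC1 and FC3 were higher than the other low-class libraries. Isg15, a ubiquitin-like modifier, overlapped between the classes (13.3 to 129 CPM in the high class, and 6.34, 10.7, 7.63 and 14.7 in MC6, FC1, FC2 and FC3). Mx2, an antiviral GTPase gene, was at 7.22 to 31.0 CPM in the high class and at 3.03, 4.78, 3.86 and 4.16 in MC6, FC1, FC2 and FC3, of which FC1 alone was above the saline range of 2.03 to 4.53.

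Of 20 tested genes of antigen presentation, 5 were called higher and 0 lower: the peptide transporter genes Tap1 and Tap2 and the immunoproteasome subunit genes Psmb8, Psmb9 and Psmb10. The list's median difference was 0.68 on the log2 scale, and the shares called over all tested genes were 1.76% and 1.19%. Psmb8 was at 21.1 to 59.9 CPM in the high class (median 44.9), at 9.11 in MC6, 11.6 in FC1, 8.60 in FC2 and 17.2 in FC3, and at 6.83 to 13.2 in saline. Tap1 was at 26.3 to 94.5 CPM in the high class and at 12.4 to 19.3 in the low class, which lay inside the saline range of 12.2 to 21.4. H2-Aa, an MHC class II chain of antigen-presenting cells, was not part of this: it was at 4.06 to 32.5 CPM in the high class and at 25.1 to 52.4 in the low class. The class I loading genes were thus higher in the high class while this class II gene was, on average, 1.53 lower on the log2 scale, with overlapping ranges.

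The promoters of 4 of these genes are shown because the genes were higher together and belong to pathways that end in known DNA motifs. They are RefSeq sequences of GRCm38.p6, each running 5′ to 3′ on the gene's strand from 250 bases before to 50 bases from the annotated start. Capitals mark matches, on either strand, to GAAANNGAA (an interferon response element form, ISRE-like), TTCNNNGAA (a STAT form) and GGGANTTTC (an NF-kB form). These 4 were chosen after their values were seen, 3 of them because they hold a match.
Lcn2 (chr2:32387690-32387989, minus strand, no match): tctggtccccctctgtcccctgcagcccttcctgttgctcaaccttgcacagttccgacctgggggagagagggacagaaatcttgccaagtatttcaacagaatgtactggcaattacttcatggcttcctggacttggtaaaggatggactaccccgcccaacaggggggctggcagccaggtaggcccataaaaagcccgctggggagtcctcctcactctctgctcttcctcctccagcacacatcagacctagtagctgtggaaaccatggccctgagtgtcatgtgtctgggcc
Socs3 (chr11:117969317-117969616, minus strand, STAT form): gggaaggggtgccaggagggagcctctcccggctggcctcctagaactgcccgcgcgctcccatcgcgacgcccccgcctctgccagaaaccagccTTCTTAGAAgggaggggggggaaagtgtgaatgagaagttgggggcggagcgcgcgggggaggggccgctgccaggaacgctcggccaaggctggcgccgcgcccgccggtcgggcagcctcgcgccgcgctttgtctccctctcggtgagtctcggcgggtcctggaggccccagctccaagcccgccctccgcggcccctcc
Cxcl10 (chr5:92348840-92349139, minus strand, ISRE-like form): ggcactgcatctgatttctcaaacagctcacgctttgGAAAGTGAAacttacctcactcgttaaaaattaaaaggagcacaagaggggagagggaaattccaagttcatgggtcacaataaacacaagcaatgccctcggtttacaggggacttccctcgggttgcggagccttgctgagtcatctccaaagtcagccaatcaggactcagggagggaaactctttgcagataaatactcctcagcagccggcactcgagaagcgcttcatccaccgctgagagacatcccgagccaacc
Psmb8 (chr17:34197945-34198244, plus strand, STAT form): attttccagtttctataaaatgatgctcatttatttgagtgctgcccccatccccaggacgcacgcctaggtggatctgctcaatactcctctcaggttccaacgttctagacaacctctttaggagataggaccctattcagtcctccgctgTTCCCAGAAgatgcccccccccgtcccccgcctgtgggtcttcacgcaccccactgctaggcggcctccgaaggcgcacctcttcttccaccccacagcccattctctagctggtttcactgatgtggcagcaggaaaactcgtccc

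A promoter was found in the table for 215 of the 317 genes called higher. Of these 215, 29 (13.5%) held the ISRE-like form, 24 (11.2%) the STAT form and 7 (3.26%) the NF-kB form. For genes called lower, 138 of 213 symbols had a promoter, and 15.2%, 6.52% and 2.90% held the same forms. Among the 12375 tested genes with a promoter in the table, the shares were 8.78%, 8.40% and 1.18%, and in the whole table of 27025 genes they were 9.76%, 9.55% and 1.29%. The ISRE-like form was thus about as frequent in genes called lower as in genes called higher. With 1 more A at its 3′ end the ISRE-like form was held by 8.84% of the genes called higher, 4.35% of those called lower and 3.73% of those tested, so its share depends on the form searched. The match in Socs3 begins at base 97 of its window, that in Psmb8 at base 154 and that in Cxcl10 at base 38. These letters describe the windows only. Cxcl10 encodes a chemokine that draws T cells and was at 4.54 to 11.3 CPM in the high class, at 2.81, 3.92, 2.88 and 3.95 in MC6, FC1, FC2 and FC3 and at 1.91 to 5.52 in saline.

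Clca3a2 and Clca3a1 encode secreted proteins of the chloride channel accessory family. Clca3a2 was at 26.4 to 160.4 CPM in the high class (median 41.6), at 4.59 in MC6, 8.88 in FC1, 5.10 in FC2 and 7.85 in FC3, and at 2.34 to 4.38 in saline. Every library of the low class was above saline and under the high class. Clca3a1 was at 7.73 to 43.2 CPM in the high class and at 1.55 to 2.17 in the low class, within the saline range of 0.835 to 2.48. These neighbouring genes are alike in sequence, so reads may have been divided between them in counting.

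The other genes with the largest differences above the low class were of mixed kinds. 4930539E08Rik had the largest difference of the genes called at a mean of at least 5 CPM (4.38 on the log2 scale): it was at 0.960 to 31.6 CPM in the high class and at 0.0444 to 0.264 in the low class, where few reads lie behind each value. Fyb2 (5.46 to 42.8 CPM against 1.32 to 3.02), the antibacterial Pglyrp1 (3.87 to 50.3 against 0.685 to 2.72), the secretory pathway calcium pump gene Atp2c2 (12.1 to 77.3 against 2.48 to 6.64), the crystallin gene Cryba2 (2.75 to 12.9 against 0.158 to 2.04) and Cuzd1 (49.9 to 319 against 8.54 to 19.9) completed the 12 that head the order. Of these 5, Cuzd1 was the one with all low-class libraries above saline (3.35 to 7.73 CPM).

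Of 26 tested p53 targets, 1 was called higher (Cdkn1a, the cell cycle inhibitor p21), beside 1.76% of all tested genes, and 0 lower, with a median of 0.31 on the log2 scale. Cdkn1a was at 70.3 to 199 CPM in the high class (median 134), at 65.0 in MC6, 38.2 in FC1, 69.5 in FC2 and 55.6 in FC3, and at 27.8 to 62.2 in saline. The classes were separated by less than 1 CPM, and MC6 and FC2 were above saline. Aen, a nuclease gene induced by p53, was above saline in all cisplatin libraries (42.4 to 111 CPM in the high class and 35.5 to 41.2 in the low class, against 26.5 to 35.3 in saline). In the list of necroptosis and pyroptosis genes, 2 of 15 were called higher and 0 lower, beside 1.76% and 1.19% of all tested genes. These were Mlkl, the membrane-permeabilising effector of necroptosis (3.03 to 9.67 CPM against 1.94 to 2.42), and Pycard, the inflammasome adaptor (12.7 to 40.5 against 6.21 to 9.80). The kinase gene upstream of Mlkl, Ripk3, was at 8.13 to 20.9 CPM in the high class and missed the call by the library FC2, at 8.21.

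Of 18 chemokines and cytokines, 3 were called higher (Ccl28, Cxcl10 and Il34) and 1 lower (Cxcl12, a chemokine of stromal cells, at 139 to 473 CPM against 513 to 572). The shares over all tested genes were 1.76% and 1.19%, and Il34 is also counted in the tubular injury list. Il34, a ligand of the macrophage growth factor receptor, was at 25.5 to 77.2 CPM in the high class and at 15.1 to 22.9 in the low class, with saline at 8.61 to 21.8.

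No member was called among 19 genes of the NRF2 antioxidant response, 22 of ATF4 and endoplasmic reticulum stress, 20 of the cell cycle, 16 of oxidative phosphorylation, 16 of glycolysis, 14 of fatty acid oxidation, 16 of calcium and magnesium handling or 13 of platinum transport and handling. Their median differences lay between -0.11 (cell cycle) and 0.42 (NRF2 targets) on the log2 scale. With 1.76% and 1.19% of all tested genes called, 0 in lists of this size does not show that they were alike in both classes. Summed CPM over every member of the NRF2 list was 3529.05 to 5693.76 in the high class and 2959.02 to 3528.41 in the low class. Saline libraries were at 2880.65 to 3757.38.

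Interstitial and matrix genes led those that were lower in the high class. Tnn, which encodes the extracellular matrix glycoprotein tenascin N, was at 17.2 to 115 CPM in the high class (median 28.7) and at 346 in MC6, 312 in FC1, 244 in FC2 and 401 in FC3. Saline libraries were at 351 to 637, so that 3 of the 4 low-class libraries were just under the saline range. Vcan, the large proteoglycan versican, was at 8.06 to 38.9 CPM in the high class (median 30.1), at 202, 139, 161 and 178 in MC6, FC1, FC2 and FC3, and at 131 to 413 in saline. Tnc, tenascin C, was at 17.3 to 95.1 CPM in the high class, at 239, 245, 155 and 289 in MC6, FC1, FC2 and FC3, and at 152 to 405 in saline. For Vcan and Tnc every low-class library was inside the saline range and every high-class library below it. The receptor genes Npy1r (neuropeptide Y; 11.05 to 70.3 CPM against 148 to 286) and Itga8 (an integrin of mesenchymal cells; 5.30 to 25.04 against 39.8 to 53.9) had the same order. Igfbp5, a secreted binding protein of insulin-like growth factors, was at 312 to 1416 CPM in the high class, at 3514, 3230.3, 3396 and 2711 in MC6, FC1, FC2 and FC3, and at 1665 to 5411 in saline. Gm567, Cck (the peptide hormone cholecystokinin), Ahrr (the aryl hydrocarbon receptor repressor), Car8, Tal2 and Rflna filled the 12 largest differences, from -1.91 to -2.24 on the log2 scale.

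In the list of fibroblast and matrix genes, 4 of 21 were called lower (Pdgfra, Pdgfrb, Col6a1 and Tnc) and 1 higher (Ccn2), with a median of -0.67 on the log2 scale. The shares over all tested genes were 1.19% lower and 1.76% higher. Pdgfra, a receptor that marks interstitial fibroblasts, was at 35.1 to 157 CPM in the high class, at 219.9, 279, 214 and 253 in MC6, FC1, FC2 and FC3, and at 133 to 365 in saline. Ccn2, the connective tissue growth factor, was at 72.3 to 353 CPM in the high class and at 47.4 to 68.6 in the low class, with saline at 32.97 to 66.7. Of 13 endothelial genes, 1 was called lower (Emcn, the surface sialomucin of capillaries and veins) and 0 higher, beside the same shares, with a median of -0.70. Emcn was at 72.9 to 344 CPM in the high class, at 509, 426, 426 and 349 in MC6, FC1, FC2 and FC3, and at 329.6 to 791 in saline. Pecam1, a general endothelial marker, was at 84.8 to 201 CPM in the high class and at 249 to 363 in the low class, without overlap, and missed the call with a difference of -0.95.

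Osmoprotection genes, by which medullary cells take up or make organic osmolytes under the transcription factor NFAT5, were in part lower. Of 17 tested, 3 were called lower (Akr1b3, Slc6a12 and Hspa4l) and 0 higher, with a median of -0.32 on the log2 scale. The shares over all tested genes were 1.19% lower and 1.76% higher. Akr1b3, the aldose reductase that makes sorbitol, was at 510.05 to 3373 CPM in the high class (median 1747), at 4888 in MC6, 5789.5 in FC1, 4639 in FC2 and 4231 in FC3, and at 3576 to 7155 in saline. Slc6a12, the betaine transporter, was at 11.6 to 42.6 CPM in the high class, at 52.0, 90.1, 80.0 and 80.6 in MC6, FC1, FC3 and FC2, and at 54.4 to 144 in saline. All low-class libraries were within saline for Akr1b3, and MC6 was just under it for Slc6a12. Slc14a1, the urea transporter of descending thin limbs and vasa recta, was at 31.1 to 83.1 CPM in the high class and at 95.2 to 129.7 in the low class (saline 89.1 to 149). Of 13 tested thin limb genes, 2 were called lower (Slc14a1 and Akr1b3) and 0 higher, with a median of -0.15 on the log2 scale. Summed CPM over this list, which includes Akr1b3, was 5328 to 10243 in the high class and 11077 to 13344 in the low class. Saline libraries were at 10459.5 to 15421. Among 16 genes of endothelin, nitric oxide and prostaglandin signalling, 1 was called lower (Ednrb, the type B endothelin receptor, at 22.1 to 58.8 CPM against 77.7 to 137) and 0 higher.

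**Figure D4:**
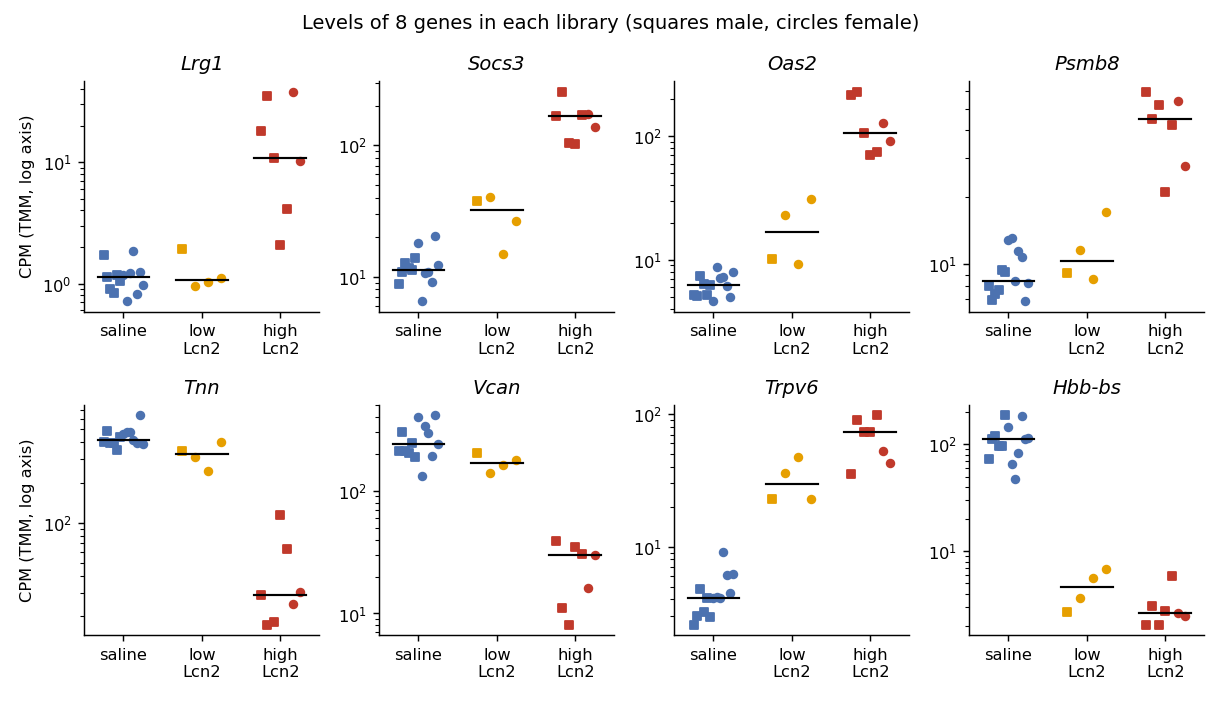
CPM (TMM-scaled, log axes) of Lrg1, Socs3, Oas2, Psmb8, Tnn, Vcan, Trpv6 and Hbb-bs in each saline, low-Lcn2 and high-Lcn2 library; squares are male and circles female libraries, and bars are medians. In Vcan the low class lies within the saline range (139 to 202 CPM, saline 131 to 413). In Lrg1 it does so except for MC6, just above saline (1.93 CPM, highest saline library 1.87). In Trpv6 and Hbb-bs both cisplatin classes lie outside the saline range.

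Of 15 principal cell genes, 1 was called higher (Scnn1b, the beta subunit of the epithelial sodium channel) and 0 lower, and of 15 intercalated cell genes 0 were called, beside 1.76% and 1.19% of all tested genes. Scnn1b was at 119.8 to 255 CPM in the high class, at 50.8, 70.5, 54.0 and 82.4 in MC6, FC1, FC2 and FC3, and at 22.8 to 69.1 in saline. Aqp2, the vasopressin-regulated water channel that defines principal cells, overlapped throughout (3564 to 8237 CPM in the high class, 4503 to 7589 in the low class and 5034 to 8892 in saline). This marker of principal cells was thus abundant in every library, which does not by itself show the zone of the kidney. Krt8 and Krt18, keratins of simple epithelia, were at 374 to 648 and 375 to 1012 CPM in the high class and at 233 to 314 and 218 to 327 in the low class, differences of 0.87 in both that fall short of the call. Klk1, the tissue kallikrein of the connecting tubule, was called higher (55.7 to 537 CPM against 29.2 to 52.3, with saline at 9.64 to 72.3). It was the 1 gene called higher of 7 tested genes of the distal convoluted and connecting tubule, and 0 were called lower. The median difference of that list was -0.04 on the log2 scale, so the list did not share the direction of Klk1.

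Markers of other kidney zones and of blood cells were read beside these lists, over every member. Calls here stand beside 1.76% (higher) and 1.19% (lower) of all tested genes. Summed CPM over 20 proximal tubule genes was 122 to 1210.4 in the high class, 198 to 536 in the low class and 232 to 1319 in saline, and 0 of the 20 were called. Slc34a1, the phosphate transporter that defines the proximal tubule, was at 3.29 to 61.6 CPM in the high class and 14.2 to 41.2 in the low class. Over 9 genes of the thick ascending limb it was 2650 to 9478 in the high class, 4214 to 10645 in the low class and 1449 to 15242 in saline, with 0 called. Umod, the uromodulin of that limb, overlapped likewise (563 to 3458 and 1199 to 3312 CPM, against 289 to 6799.6 in saline). For 10 urothelial genes it was 796 to 2223 against 645 to 1014 (796 to 1082 without MC5), and 2 were called higher (Upk1b and Upk3a, uroplakins of the lining of the renal pelvis). Over 16 macrophage and monocyte genes the sum was 132 to 246 against 113 to 230.1, and 2 of the 14 tested were called higher (Cd68 and Cd14) and 0 lower. The median difference of these 14 was -0.42 on the log2 scale, opposite in direction to the 2 called. Adgre1, the F4/80 antigen of resident macrophages, was at 0.663 to 3.27 CPM in the high class and at 2.44 to 6.43 in the low class, so it did not share the direction of Cd68 (11.97 to 42.3 against 5.69 to 9.14). Neutrophils had 1 tested marker, Csf3r, at 0.0467 to 0.680 CPM and 0.216 to 0.685. Lymphocyte genes (12, of which 4 were tested and 0 called) summed to 3.81 to 12.4 in the high class and 9.16 to 16.7 in the low class. Of 7 smooth muscle and mural cell genes, 4 podocyte genes and 1 adipocyte gene, 0 were called. No marker of these lists was at 0 in all cisplatin libraries. The part of other cells or of dissection in the class differences was not tested.

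**Figure D5:**
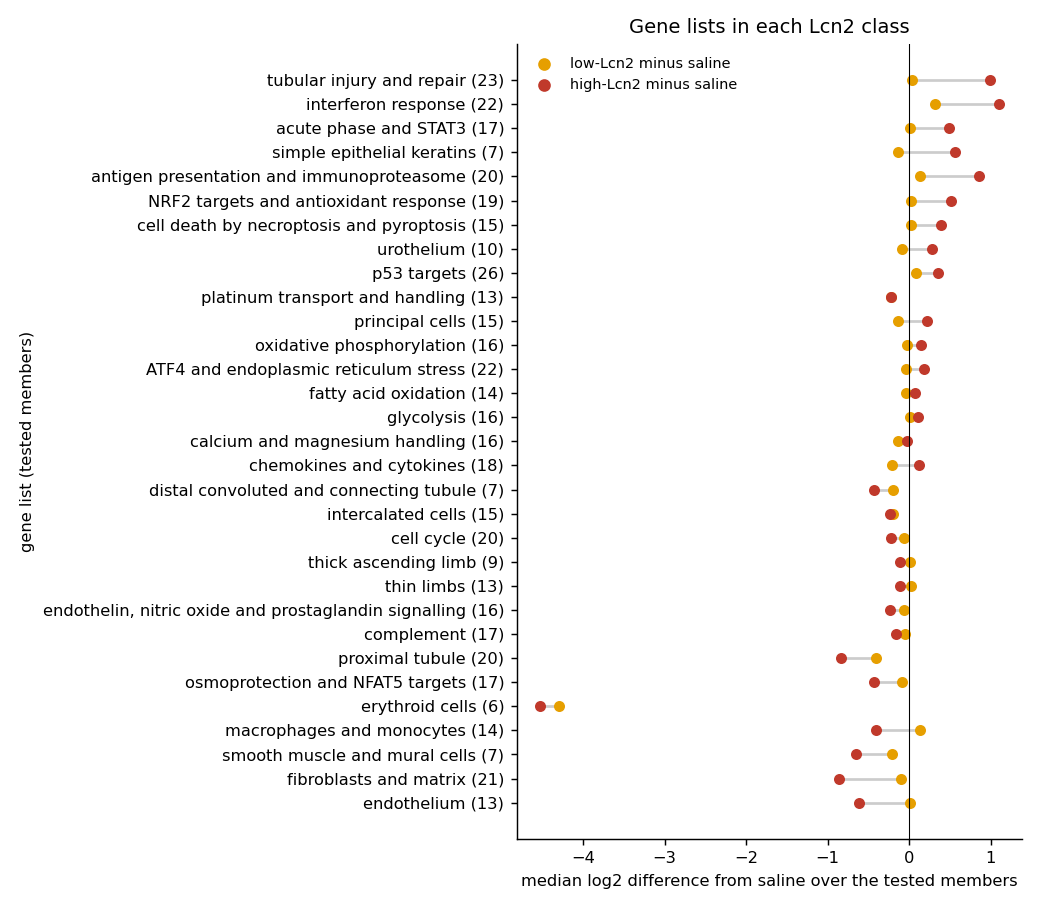
Median log2 difference from saline over the tested members of each gene list with at least 5 tested members, in the low-Lcn2 class (orange) and in the high-Lcn2 class (red), ordered by the median difference between the classes. The interferon list has medians of 0.31 and 1.11 and the fibroblast and matrix list -0.10 and -0.86, while the erythroid list is low in both (-4.29 and -4.53); all differences use the same saline libraries.

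Some genes were displaced from saline in every cisplatin library, whatever its Lcn2. All 11 cisplatin libraries were above all 13 saline libraries for 28 genes (0.156% of those tested) and below them for 7 (0.0389%). Of the 28, 17 were also called higher in the high class, and 11 were not called. These counts move with single libraries: without FC1 they were 48 and 24, and without the female saline library FS2 24 genes were below. Trpv6 and Trpv5, which encode the epithelial calcium channels, belong to the 11. Trpv6 was at 35.2 to 97.9 CPM in the high class (median 72.7), at 22.7 in MC6, 36.0 in FC1, 47.0 in FC2 and 22.8 in FC3, and at 2.57 to 9.17 in saline. The classes overlapped and every cisplatin library was above saline. In edgeR's quasi-likelihood test of the labelled groups, Trpv6 rose by 3.56 on the log2 scale (SE 0.22, adjusted p = 6.54e-11, n = 11 and 13). FC2, whose Lcn2 was within the saline range, had the highest Trpv6 of the low class. Trpv5 was at 2.24 to 15.4 CPM in the high class, at 1.02, 4.53, 2.40 and 1.00 in MC6, FC1, FC2 and FC3, and at 0.0418 to 0.460 in saline. Gm42047 was at 8.99 to 16.0 CPM and 8.38 to 13.5 in the high and low classes, which overlapped almost wholly, against 1.19 to 5.77 in saline.

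Among the 17 that were both outside saline everywhere and higher in the high class, Cfi encodes complement factor I, a protease that cleaves C3b and C4b. Cfi was at 22.9 to 53.7 CPM in the high class, at 7.40 in MC6, 15.4 in FC1, 5.99 in FC2 and 6.11 in FC3, and at 1.34 to 3.47 in saline. It was the 1 gene called among 17 tested complement genes, beside 1.76% of all tested genes called higher. The median difference of the complement genes was -0.20 on the log2 scale. Prtn3, known as proteinase 3 of neutrophil granules, was at 4.92 to 25.98 CPM in the high class, at 2.37, 2.80, 2.84 and 1.054 in MC6, FC1, FC2 and FC3, and at 0.191 to 0.986 in saline. Gm13398 was at 9.90 to 32.6 CPM against 3.02 to 5.03, with saline at 0.681 to 1.33. The order of saline, low class and high class, with no overlap at either step, is what placed these genes among the 17.

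Haemoglobin transcripts were far below saline in both classes. Hbb-bs, an adult beta globin, was at 2.04 to 5.92 CPM in the high class (median 2.62), at 2.70 in MC6, 3.66 in FC1, 5.63 in FC2 and 6.85 in FC3, and at 47.6 to 187 in saline. The classes overlapped, with a mean difference of -0.64 on the log2 scale (high minus low), and no cisplatin library reached the saline range. It fell by 4.94 on the log2 scale in edgeR's quasi-likelihood test of the labelled groups (SE 0.27, adjusted p = 1.04e-11, n = 11 and 13). Hba-a1, an alpha globin, was at 1.57 to 6.03 CPM in the high class and at 1.97 to 4.48 in the low class, against 34.3 to 133 in saline. Hbb-bt (0.166 to 1.07 and 0.292 to 0.738, against 6.26 to 37.2 in saline), Hba-a2 and the haem synthesis gene Alas2 complete the erythroid genes among the 7, which also hold Sacm1l, a phosphoinositide phosphatase gene. The globin genes come in near-identical pairs, so counts may have been divided within a pair. The erythroid list had 0 of 6 tested members called between the classes, beside 1.76% (higher) and 1.19% (lower) of all tested genes. With so few members this does not show that the classes were alike. Its median was -4.29 in the low class and -4.53 in the high class relative to saline. Summed CPM over its 8 members was 52.3 to 143.6 in the high class, 120 to 258.2 in the low class and 276.7 to 726.9 in saline.

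In edgeR's quasi-likelihood test of all cisplatin against all saline libraries, averaged over the sexes, 2911 genes (16.2%) rose and 1970 (10.9%) fell, with 0.05 as the limit for the adjusted p. In the tubular injury list without Lcn2, 14 of 22 rose and 0 fell, in the list of NRF2 targets 13 of 19 rose and 0 fell, in the interferon list 18 of 22 rose and 0 fell, and in the antigen presentation list 13 of 20 rose and 4 fell. The fibroblast and matrix list had 1 of 21 up and 10 down, and the osmoprotection list 1 of 17 up and 6 down. These labelled comparisons hold the same libraries as the classes and are not independent of them. Without FC4, a high-class library, 1313 genes fell, and without MC6, a low-class library, 2543 did.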

How the data were processed

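RNA was sequenced from 24 inner medulla libraries, and the authors deposited counts, whole numbers of reads or fragments per Ensembl gene identifier. Per the submitters' processing notes, the tools were featureCounts of Subread 2.0.1, Trim Galore 0.6.7 and DESeq2 1.28.1, with the mouse build mm10. Aligner, annotation and strandedness were not given in the sources used here, so antisense and overlapping genes cannot be told apart, and no coordinates are given for counted genes. Promoter coordinates are RefSeq's (GRCm38.p6), and gene spans come from the reference annotation. Symbols were found for 52083 of 55416 identifiers.

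CPM by column total set the Lcn2 classes. Genes were kept by edgeR's filterByExpr (edgeR 4.0.16, R 4.3.3, minimum count 10; 18005 genes), and all other CPM and log2 CPM (prior count 2) used TMM-scaled library sizes. Cisplatin was tested against saline with edgeR's quasi-likelihood test on 4 group means, with Benjamini-Hochberg adjustment over all tested genes. The spread test drew 100000 resamples, and expression in the classes was described without a test; sex and total counts by class were tested with Fisher's exact and an exact permutation test. Library totals ran from 18.1 to 27.3 (in units of 1000000 counts), and values under 1 CPM rest on few reads.

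The members, the 35 gene lists and the tests were chosen with earlier results of these data known. Named genes were, at a mean of at least 5 CPM over cisplatin, the 12 with the largest difference among those called in each direction and the 6 in each direction outside saline in all cisplatin libraries; up to 4 members per list by size of difference; and Lcn2, Havcr1, Cdkn1a, Aqp2, Umod, Slc34a1 and Hbb-bs. Other list members are named because they were called, after their values were seen, and a few items are not reported here. Alternatives were another threshold, scaling, filter or prior count, sex as a covariate, a replicate block, DESeq2 1.42.0 and each library left out. The scripts were tested on simulated data.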

Additional observations from a re-analysis of the deposited data

Results flagged for a closer look

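In 80 sets of labelled group and gene, 17 had 1 library far from the rest of its own sex and treatment by Dixon's criterion, which chance meets in about 1 of 20 sets. Genes share libraries, so the sets are not independent. Many of the genes were also chosen for their difference between the classes, so the 17 cannot be set against that rate. The gap counts as far when it takes up more of the group's range than the 95% critical value for that group size.

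MC6, the 1 male library of low Lcn2, was the highest of the 6 male cisplatin libraries in 9 genes that were lower in the high class: Tnn (346 CPM, the others 17.2 to 115), Vcan (202), Tnc (239), Npy1r (286), Igfbp5 (3514), Cck (219), Car8 (144), Tal2 (36.2) and Rflna (17.8). These genes were chosen for their difference between the classes, which puts MC6 apart from the other male libraries by construction. MC2, the library with the most Lcn2, was the highest male cisplatin library in Clca3a1 (43.2 CPM), Clca3a2 (160.4), Cuzd1 (319, the others 14.7 to 86.2) and Trpv5 (15.4, the others 1.02 to 6.35).

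MC5 was the lowest male cisplatin library in Sacm1l, a phosphoinositide phosphatase gene (7.68 CPM, the others 49.9 to 70.2), and the highest in Hbb-bs (5.92 CPM, the others 2.04 to 3.08). FC4 was the highest of the 5 female cisplatin libraries in 4930539E08Rik (13.5 CPM, the others 0.0444 to 3.38) and Lrg1 (38.2 CPM, the others 0.948 to 10.3).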

How the results depend on the processing

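With a threshold of 500 CPM, which moves FC1 to the high class, 136 genes were called higher and 88 lower, against 317 and 214. Leaving out 1 cisplatin library gave 306 to 438 and 203 to 344. The low class lay above saline in 35 to 85 genes and below in 23 to 78, and all cisplatin libraries above in 28 to 48 and below in 7 to 24, over the libraries left out; with fewer libraries more genes can lie outside a range. In edgeR's test, genes that rose numbered 2023 to 3482 and genes that fell 1313 to 2543 over the libraries left out, and with DESeq2 3095 rose and 2393 fell. The difference in total counts (in units of 1000000) ran from -1.73 to 0.856; it changed sign without MC3 (0.0712) and without MC6 (0.856), with p between 0.367 and 1 by the exact permutation test. The difference in spread kept its sign and its side of the threshold in all 27 alternatives run (0.111 to 0.156 over libraries left out).

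Over 33 pairs of same-numbered libraries in 2 groups, deviations from the group means correlated between -0.297 and 0.280, and 6 pairs were over 0.1. Without differently numbered pairs beside them, these values do not settle whether the replicate numbers pair libraries. With the replicate number as a block, 2140 genes rose and 1617 fell. No 2 libraries of a group held the same counts (chi-square per gene of at least 7.23 over 61 pairs). Under scaling by column total, and with sex as a covariate, the class difference of each of 164 named genes moved by less than the larger SD within a class.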

Other observations

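Genes of the amino acid response under ATF4 differed widely among the cisplatin libraries in an order that was not that of Lcn2. Trib3, a pseudokinase gene, was at 143 CPM in MC1, 114 in MC3 and 144 in FC5, but at 4.39 in MC2, the library with the most Lcn2, and at 2.29 to 8.65 in MC4, MC5 and FC4. In the low class it was at 34.2 in MC6 and 11.4 in FC2, above the saline range of 2.10 to 5.42, and at 1.72 in FC1 and 4.11 in FC3. Asns, asparagine synthetase, had a like order, with 83.6, 60.5 and 77.2 CPM in MC1, MC3 and FC5, 40.4 in MC6 and 30.9 in FC2, against 10.5 to 21.4 in saline and 11.4 to 20.1 in the remaining cisplatin libraries. The amino acid transporter gene Slc7a5 was likewise highest in MC1 (96.0), MC3 (76.9) and FC5 (68.0).

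Metallothioneins, which bind zinc and other metals, divided the high class itself. Mt1 was at 296 to 806 CPM in MC1, MC2, MC3, FC4 and FC5, at 45.7 in MC4 and 92.7 in MC5, and at 27.8 to 67.0 in the low class, with saline at 11.7 to 107. Mt2 was at 13.2 to 45.1 CPM in the same 5 libraries, at 1.30 in MC4 and 1.81 in MC5, and at 0.0527 to 1.69 in the low class. Hk2, a hexokinase gene, was at 14.5 to 63.4 CPM in those 5 and at 6.02 in MC4 and 8.22 in MC5, within the low-class range of 2.06 to 8.69 for both.

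Of the 23 genes for which the whole low class was below saline, 3 span at least 500 kb in the reference annotation, against 0.825% of tested genes with a known span (148 of 17938). These are Fhit (1612 kb), Immp2l (931 kb) and Dpyd (871 kb), at -2.33, -1.38 and -1.71 on the log2 scale relative to saline in the low class and at -1.38, -0.96 and -2.01 in the high class. They were singled out after their values were seen. The median of all 148 genes, relative to saline of the same sex, was -0.552 to -0.147 on the log2 scale in the high class. It was -0.381 to -0.052 in the low class and -0.316 to 0.173 in saline, so these ranges overlapped. The low end of saline was the library FS6 alone, and the next lowest, MS3, was at -0.108. Every high-class library was below MS3, as were MC6 and FC2 of the low class, whereas FC1 and FC3 were above it.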
